A study of Macaca fascicularis with 22 samples.

Results

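Adenosine kinase (ADK), 3 further enzymes acting on adenosine or AMP (ADA, NT5E and AMPD1) and the 4 adenosine receptors (ADORA1, ADORA2A, ADORA2B and ADORA3) were followed in tissues of low birth weight (LBW) and average birth weight (ABW) macaque neonates. The 8 genes were found by their human RefSeq accessions (NM_001123, NM_000022, NM_002526, NM_000036, NM_000674, NM_000675, NM_000676 and NM_000677, in the order above), 8 of the 19376 accessions on the array. Each accession had 1 probe, printed as 2 spots. ADK was put on the list because of its difference between LBW and ABW, so its birth weight values are given as a description, without a test.

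RNA of 22 samples, from female cynomolgus neonates of dams naturally mated with a single male, was hybridised to rhesus arrays of Agilent in 1 colour. LBW neonates lay between the 5th and 25th centile of birth weight and ABW neonates, the controls, between the 50th and 75th, and the labels give no other treatment. Skeletal muscle (biceps femoris) and umbilical cord had 4 arrays a group by the labels, and liver had 3 a group. The labels place sampling at birth, whereas the methods place the terminal collection of liver and muscle some days later. By the methods both tissues came from the same neonates. The labels do not tie arrays to animals, so the p-values treat each array as a separate sample. A level below is the log2 of a probe's processed signal (background-subtracted intensity) minus the array's 75th percentile, so a probe at 0 is as bright as that percentile. The 75th percentile lay between 315 and 2390 intensity units, and between 14594 and 17887 of the 20217 probes were flagged well above background on an array. The precision is set by the small number of arrays.

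The labels of liver and umbilical cord went against the marker genes. All 16 hepatocyte genes that could be named, of 22 listed, were higher on all arrays labelled umbilical cord than on any labelled liver. Their mean level was 0.05 to 1.58 on the arrays labelled cord and −7.23 to −6.61 on those labelled liver. The 8 named striated muscle genes, of 14 listed, were highest on every muscle array. Of 11 named matrix and stroma genes, 6 were higher on every array labelled liver than on every array labelled cord and 2 the other way round. None of the 7 blood and immune markers could be named, and of 4 endothelial markers only MCAM. The groups are therefore called by their labels. Symbols other than the 8 came from a table that the study had selected by birth weight differences.

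Adenosine is released when ATP is broken down. NT5E (CD73) forms it outside the cell from AMP, ADK phosphorylates it back to AMP inside the cell, and ADA deaminates it to inosine. AMPD1, the isoform of skeletal muscle, deaminates AMP to IMP and so takes AMP away from that route. ADORA1 and ADORA3 couple to inhibitory G proteins, and ADORA2A and ADORA2B to stimulatory G proteins that raise cyclic AMP. ADK is best known as an abundant enzyme of the hepatocyte, where it keeps free adenosine low.

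**Figure D1:**
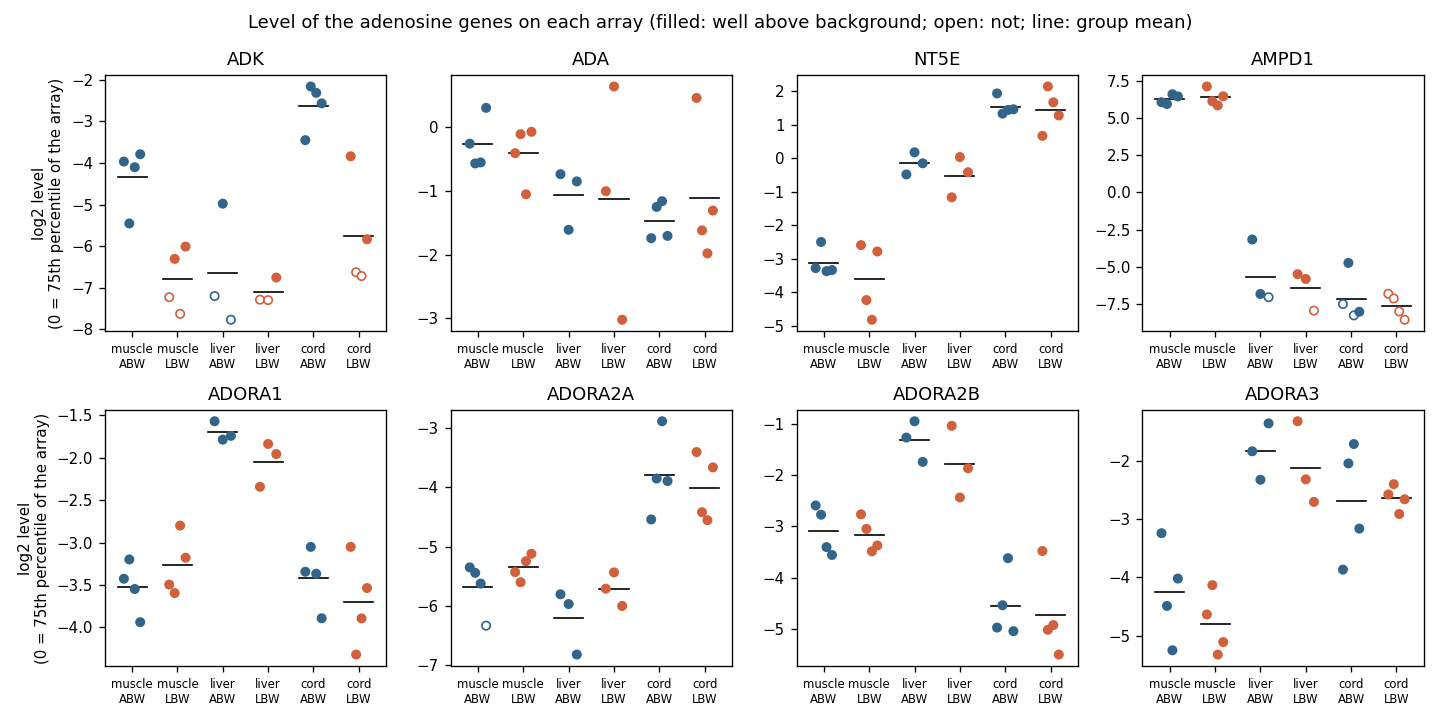
Each panel plots 1 gene on its own axis, as the log2 level relative to the array's 75th percentile, with 1 point per array (blue, ABW; orange, LBW) and a line at the group mean; filled points were flagged well above background and open points were not. ADK was lower on every LBW than on every ABW array of muscle and of the label cord, AMPD1 stood far above the other labels in muscle, and for the receptors the ABW and LBW arrays of a label overlapped, except for ADORA1 under the label liver.

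ADK, chosen for its difference between the groups, was lower on every LBW array than on every ABW array of muscle and of the label cord. In skeletal muscle the 4 ABW arrays had ADK levels of −3.96, −5.45, −4.10 and −3.79 (−4.33 ± 0.76, SD, n = 4). The 4 LBW arrays had −7.23, −6.30, −7.63 and −6.01 (−6.79 ± 0.76, SD, n = 4). The groups did not overlap, with the lowest ABW array 0.56 above the highest LBW array. The difference of the means was −2.46 on the log2 scale, but 2 of the 4 LBW arrays were not above background, and the value was −2.09 with a floor on dim signals and −0.27 with the normexp background correction, both described below. Every LBW muscle array lay below every ABW array for 1.92% of all probes, a share from which nothing is read, as ADK was chosen on this contrast.

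On the arrays labelled umbilical cord the ABW levels of ADK were −3.45, −2.16, −2.31 and −2.56 (−2.62 ± 0.58, SD, n = 4). The LBW levels were −3.84, −6.63, −6.72 and −5.83 (−5.75 ± 1.34, SD, n = 4). All LBW arrays were again below all ABW arrays, although LBW replicate 1 came within 0.39 of the lowest ABW array. The difference was −3.13, again with 2 of 4 LBW arrays not above background, and it was −0.78 with normexp. Under this label every LBW array lay below every ABW array for 3.21% of all probes, from which nothing is read for the same reason.

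On the arrays labelled liver the ABW levels of ADK were −7.20, −4.98 and −7.77 (−6.65 ± 1.48, SD, n = 3), and the LBW levels −7.29, −7.30 and −6.75 (−7.11 ± 0.31, SD, n = 3). The groups overlapped. The difference of −0.46 rested on ABW replicate 2, since without it the LBW mean was 0.37 above the ABW mean.

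The ADK signals behind these levels were low, which bears on the size of the differences. In muscle the processed signals of the 4 ABW arrays were 51.5, 13.7, 44.8 and 48.5 intensity units, and those of the LBW arrays 4.76, 7.82, 1.82 and 11.2. Under the label cord they were 57.3, 115, 180 and 404 for ABW and 22.1, 5.27, 4.54 and 13.02 for LBW. Under the label liver they were 5.55, 26.0 and 4.41 for ABW and 4.99, 5.23 and 9.66 for LBW. The lowest signal that was flagged well above background on an array was between 4.01 and 6.12. All 8 ABW arrays of muscle and cord measured ADK above background. Of the LBW arrays 2 of 4 did so in muscle and 2 of 4 under the label cord, and under the label liver 1 of 3 arrays in each group. Dim signals therefore make up much of the low side. Raising each signal under that array's lowest flagged one up to it left differences of −2.09 in muscle, −3.11 in cord and −0.52 in liver. This floor did not reach every unflagged signal. Muscle LBW replicate 1 had 4.76 against a floor of 4.65, and cord LBW replicate 2 had 5.27 against 4.71. The floored values therefore show the dependence on dim signals only in part.

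**Figure D2:**
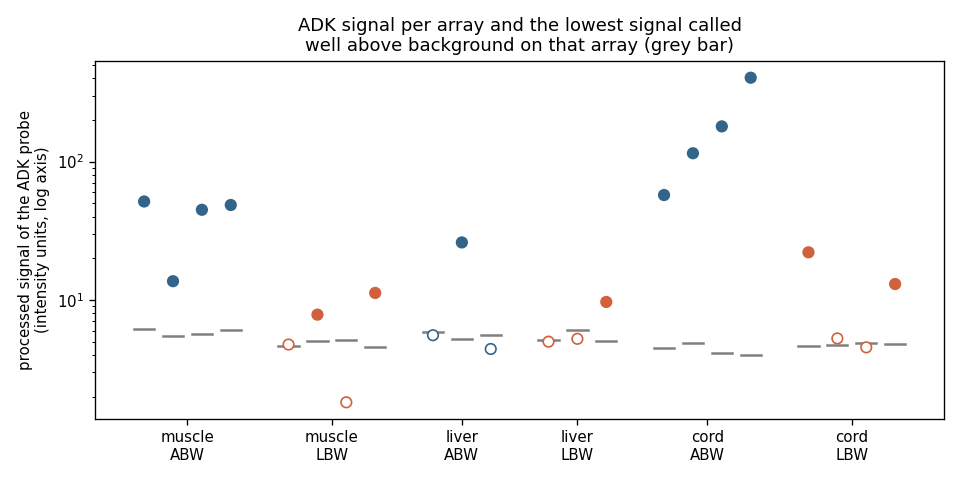
Processed signal of the ADK probe on each array, in intensity units on a log axis (blue, ABW; orange, LBW; filled, flagged well above background; open, not), with a grey bar at the lowest signal flagged on that array. The ABW arrays of muscle (13.7 to 51.5) and cord (57.3 to 404) stood above the bars, while LBW arrays of both labels and most liver arrays lay near them.

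The single spots showed the same direction in muscle and cord before any correction by the software, with overlapping ranges in muscle. The median spot signal minus its local background was 18.5 to 62.5 units in muscle ABW and 7.5 to 22 in muscle LBW, with a local background of 26.5 to 36.5 over all arrays. Under the label cord it was 59.5 to 468 in ABW and 9.5 to 38 in LBW, and under the label liver 7 to 32. No ADK spot was flagged as an outlier. The direction of the difference was the same with other scalings, with the deposited log2 values and with the normexp background correction, but its size was not. With normexp, which adds an offset of 50 units before the log, LBW minus ABW was −0.27 in muscle, −0.78 in cord and −0.14 in liver.

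**Figure D3:**
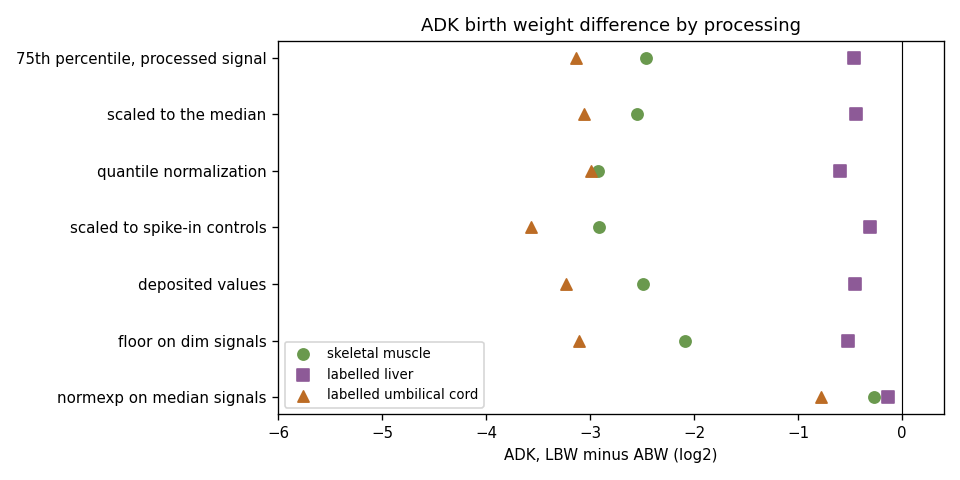
LBW minus ABW of ADK (log2, horizontal axis) under 7 ways of processing the same arrays, for muscle (circles), the label liver (squares) and the label cord (triangles). All values drawn were below 0, and in muscle and cord the normexp values of −0.27 and −0.78 lay far closer to 0 than the rest.

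Array slide, scan and the levels of marker lists moved with birth weight in places. In muscle all ABW arrays were on slide 1 and all LBW arrays on slide 2, and an effect of the slide cannot be told apart there from one of birth weight. The mean level of the 8 named striated muscle genes was 3.95 to 4.47 in muscle ABW and 4.40 to 4.87 in muscle LBW, with 7 of 8 genes higher in LBW by their means. That of the 11 named matrix and stroma genes was −0.80 to 0.21 in ABW and −1.08 to −0.49 in LBW, with 9 of 11 lower in LBW. Both lists moved the same way under the other labels. The striated muscle genes were higher in LBW for 8 of 8 under the label liver and 8 of 8 under the label cord. The matrix and stroma genes were lower for 9 of 11 and 8 of 11. Under the label cord the LBW arrays shared slide 5, while ABW lay on slides 4 and 6. The ADK difference was −2.95 against the ABW arrays of slide 4 and −3.32 against those of slide 6, which were scanned on another day. Under the label liver it was −0.64 within slide 3, which held all ABW arrays and 1 LBW array. The 75th percentile under the label cord was 513 to 2390 units in ABW and 315 to 742 in LBW. The mean of the 16 hepatocyte genes was also higher there in ABW, at 1.06 to 1.58, than in LBW, at 0.05 to 0.76, with no overlap, though only 9 of 16 genes were lower in LBW by their means. The names of all 3 lists came from the study's own birth weight selection, and their part in the ADK values was not tested. In bulk RNA fewer cells of a type and less RNA per cell cannot be told apart.

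The other 7 genes showed no birth weight difference that passed the test. In limma, 0 of 7 were called at an adjusted p under 0.05 in muscle, in liver and in cord, where 0%, 0% and 0.625% of all probes were called. At an unadjusted p under 0.05 it was also 0 of 7 in each, against 14.7%, 5.99% and 8.94% of all probes. Every LBW array lay above every ABW array for 0 of 7 genes under each label, against 8.61% of all probes in muscle, 8.82% in liver and 2.65% in cord. Their differences ran from −0.55 (ADORA3) to 0.34 (ADORA2A) in muscle and from −0.74 (AMPD1) to 0.48 (ADORA2A) under the label liver. Under the label cord they ran from −0.29 (ADORA1) to 0.35 (ADA) over 6 genes, leaving out AMPD1, which was not well above background on any LBW array. Of these 21 differences of the 7 genes, 16 changed sign under at least 1 alternative processing or left-out array. The median of the 7 genes was −0.09 in muscle, −0.35 in liver and −0.19 in cord, beside 0.07, 0.06 and −0.01 over all probes. The test of whether the birth weight difference varied with tissue label called 0 of 7, against 1.01% of all probes. With 3 or 4 arrays a group the intervals remained wide, so a difference of up to the bounds given next could not be told from 0.

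**Figure D4:**
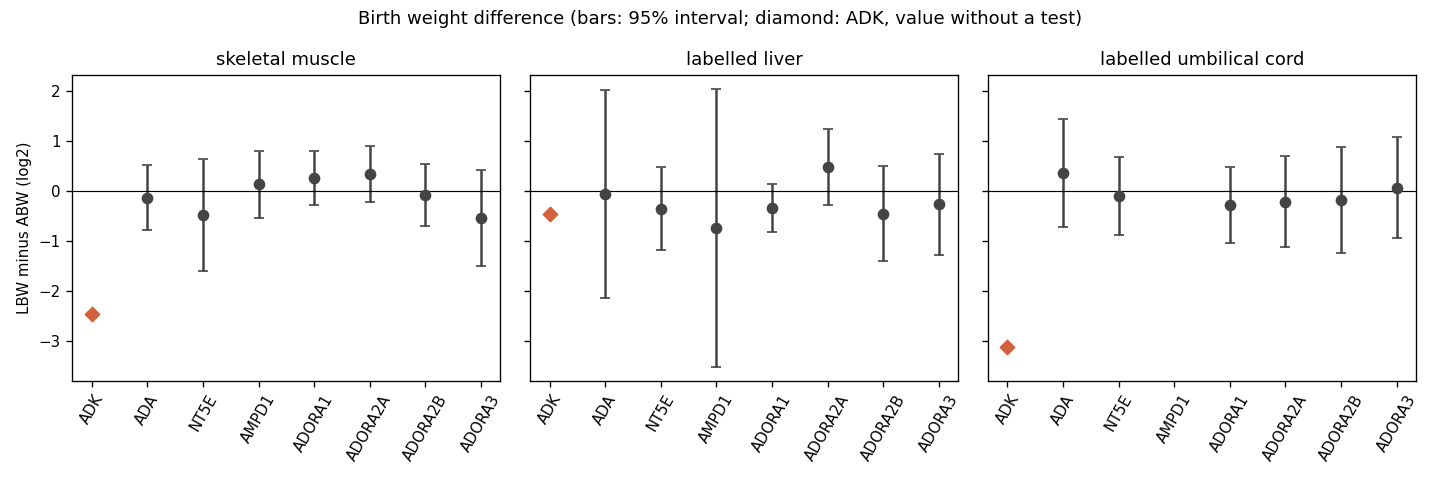
LBW minus ABW (log2, vertical axis) of each gene in each tissue label, with 95% limma intervals for the 7 tested genes (circles) and ADK as a value without a test (diamond); AMPD1 is not drawn for the label cord. Every interval drawn includes 0, and the ADK values, which chose the gene, are −2.46 in muscle, −0.46 in liver and −3.13 in cord.

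ADA, which removes adenosine, did not separate the groups under any label. Its muscle levels were −0.26, −0.57, −0.55 and 0.30 in ABW and −0.41, −0.11, −1.05 and −0.07 in LBW, a difference of −0.14 (95% interval −0.79 to 0.50, adjusted p = 0.862). Under the label liver the ABW levels were −0.74, −1.61 and −0.85, while the LBW levels of −1.01, 0.64 and −3.02 spread on both sides of them. The liver interval was accordingly −2.14 to 2.02 around −0.06, and the difference ran from −0.95 to 0.88 over the alternatives. Under the label cord 3 of 4 LBW arrays (−1.62, −1.98 and −1.31) lay among the ABW levels of −1.74, −1.25, −1.16 and −1.71 or just below them, and replicate 1 stood above at 0.46. The difference was 0.35 (−0.74 to 1.44, adjusted p = 0.854). That array also had the highest ADK level of the LBW cord group.

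NT5E, the enzyme that forms adenosine outside the cell, differed by −0.49 in muscle (95% interval −1.60 to 0.63), −0.36 in liver (−1.19 to 0.47) and −0.10 in cord (−0.88 to 0.67). Muscle NT5E was −3.27, −2.50, −3.37 and −3.33 in ABW and −2.59, −4.23, −4.81 and −2.78 in LBW. The LBW arrays lay on both sides of most ABW arrays, with 2 high and 2 low.

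AMPD1, the muscle isoform of AMP deaminase, had muscle levels of 6.06, 5.94, 6.59 and 6.45 in ABW and 7.11, 6.12, 5.84 and 6.45 in LBW. The groups overlapped, and the difference of 0.12 had an interval of −0.54 to 0.78 (adjusted p = 0.888). Under the label liver 2 of 3 arrays in each group measured it, with ABW replicate 1 at −3.15 and the other liver arrays between −7.92 and −5.48. The liver difference of −0.74 rested on that array, being 0.51 without it, and was 0.18 within slide 3.

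Among the receptors, ADORA1 was the 1 gene whose groups did not overlap under the label liver, with −1.57, −1.79 and −1.74 in ABW and −2.34, −1.84 and −1.96 in LBW. Every LBW array lay below every ABW array there for 3.21% of all probes. The difference was −0.35 (95% interval −0.83 to 0.14), which did not pass the test (adjusted p = 0.884). In muscle and cord the ADORA1 groups overlapped, with differences of 0.26 and −0.29. ADORA2A differed by 0.34 in muscle (−0.22 to 0.89, adjusted p = 0.571, the smallest of the 7 genes there), by 0.48 in liver and by −0.22 in cord. ADORA2B differed by −0.09, −0.46 and −0.19 in the same order. ADORA3 differed by −0.55 in muscle (−1.51 to 0.41), −0.28 in liver and 0.06 in cord (−0.95 to 1.07).

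Between tissue labels most of the genes passed the test, as did most of all probes. Contrasts were taken between the mean of the ABW and LBW groups of 1 label and that of another. Between cord and liver 5 of 8 genes passed, 3 higher and 2 lower in cord, where 66.9% of all probes passed. Between muscle and liver it was 6 of 8 (2 higher and 4 lower in muscle, 65.3% of all probes), and between muscle and cord 7 of 8 (3 higher and 4 lower in muscle, 64.9% of all probes). These shares were near those of all probes. The counts include ADK and AMPD1. AMPD1 was kept only through its muscle groups and ADK only through muscle and cord ABW, so their calls between labels are not support for a difference. Arrays of the labels did not overlap for 4 of 8 genes between cord and liver (38% of all probes), 5 of 8 between muscle and liver (42.5%) and 3 of 8 between muscle and cord (32.2%). Apart from cord against liver within slide 4, no slide held more than 1 label.

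**Figure D5:**
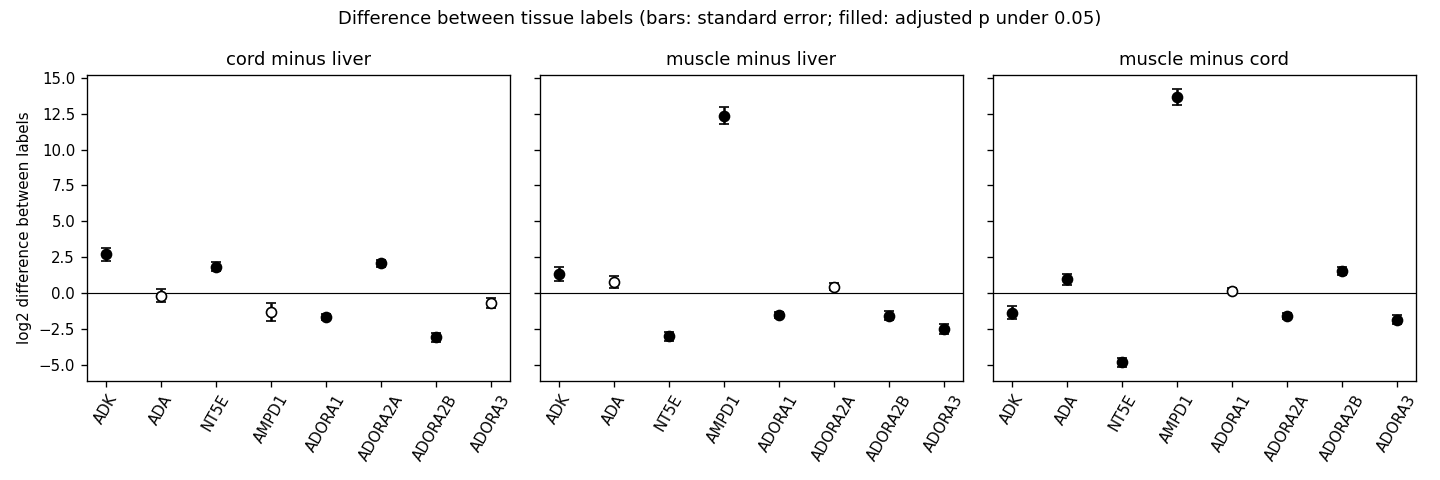
Difference between tissue labels (log2, vertical axis) of each gene, with standard errors from limma over 22 arrays. Filled points passed at an adjusted p under 0.05, but those of ADK and AMPD1 are not support for a difference, given how their probes were kept. AMPD1, drawn without a floor on its dim liver and cord signals, stands above 12 in both muscle contrasts, NT5E is lowest in muscle and highest in cord, and ADORA1, ADORA2B and ADORA3 are lower in muscle than in liver.

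ADK was highest under the label cord, lower in muscle and lowest under the label liver, where 2 of 6 arrays were above background, so that the differences from liver depend on dim signals. The probe was kept only through its ABW groups of muscle and cord, so its differences between labels are given without a test. Cord exceeded liver by 2.69 ± 0.47 (SE), muscle exceeded liver by 1.32 ± 0.47 and muscle was below cord by −1.37 ± 0.44. With the floor on dim signals they were 2.60, 1.40 and −1.20. In ABW alone the differences were 4.03, 2.32 and −1.71, and in LBW alone 1.36, 0.32 and −1.04. ADK was chosen for its difference between these groups, so nothing is read from this split. On slide 4, the 2 ABW cord arrays exceeded the 2 LBW liver arrays by 4.22. The step from liver to muscle was 0.89 with quantile normalization and 0.60 with spike-in scaling. It was 1.18 without liver ABW replicate 1 and 1.04 without liver ABW replicate 3.

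ADA was flatter across the labels. It was 0.95 ± 0.40 higher in muscle than in cord (adjusted p = 0.0452), a call that was lost without slide 6 (adjusted p = 0.0851), in 15 of the 22 fits that left out 1 array, and with spike-in scaling, where the sign turned (−0.35, adjusted p = 0.614). Cord and liver differed by −0.19 ± 0.43 (adjusted p = 0.710), and muscle and liver by 0.76 ± 0.43 (adjusted p = 0.133). The muscle to liver difference passed without liver LBW replicate 2 (1.20, adjusted p = 0.0100), the array with the highest ADA level of all.

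NT5E rose in steps from muscle to liver to cord. Its ABW levels under the label liver were −0.49, 0.17 and −0.15 and its LBW levels −1.17, 0.03 and −0.42. Under the label cord they were 1.93, 1.32, 1.43 and 1.45 in ABW and 0.66, 2.13, 1.66 and 1.27 in LBW. No array of 1 label overlapped another label. Cord exceeded liver by 1.82 ± 0.32 (adjusted p = 5.23e-05), and muscle was below liver by −3.02 ± 0.32 (adjusted p = 8.33e-08). On slide 4 the ABW cord arrays exceeded the LBW liver arrays by 1.82, so label and birth weight differ together there.

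AMPD1 did not overlap between muscle and the other labels. Its muscle signals were 20562 to 98568 intensity units, against 4.29 to 91.6 under the label liver and 1.89 to 19.4 under the label cord. With dim signals raised to the lowest flagged one, muscle lay 12.31 above liver and 13.12 above cord on the log2 scale, given without a test because the probe was kept only for its muscle signal. No LBW cord array measured it above background. For each of these arrays the higher of its lowest flagged signal and the probe's own was taken. On the scale that defines a level here, muscle LBW lay 8621-fold above these values. This is not a strict bound, because an unflagged signal can exceed an array's lowest flagged one. AMPD1 on liver ABW replicate 3, for example, was unflagged at 7.39 against 5.60. The value does not extend to other processing. Over both birth weight groups, log2 muscle minus cord was 9.71 with normexp, 12.39 with spike-in scaling and 13.62 with quantile normalization. Liver and cord levels of AMPD1 were near background (4 of 6 and 2 of 8 arrays flagged), and their difference did not pass the test (adjusted p = 0.0593).

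The receptors fell into 2 patterns. ADORA1, ADORA2B and ADORA3 had their highest mean level under the label liver, and ADORA2A under the label cord. ADORA1 was lower than in liver by −1.68 ± 0.20 in cord (adjusted p = 3.26e-07) and −1.52 ± 0.20 in muscle (adjusted p = 1.48e-06), while muscle and cord differed by 0.16 ± 0.19 (adjusted p = 0.469). Its cord to liver call was lost with spike-in scaling (−1.11, adjusted p = 0.140). ADORA2B, the low affinity receptor, was lower than in liver by −3.10 ± 0.31 in cord (adjusted p = 2.71e-08) and −1.58 ± 0.31 in muscle (adjusted p = 0.000174). Muscle lay above cord by 1.52 ± 0.29 (adjusted p = 0.000108), but by 0.22 with spike-in scaling (adjusted p = 0.750).

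ADORA2A gave signals of 8.34 to 20.8 units in muscle and under the label liver, and 1 of these arrays was not flagged well above background. Its cord levels were −4.54, −3.85, −2.88 and −3.89 in ABW and −3.40, −4.42, −4.55 and −3.66 in LBW, above all muscle and all liver arrays. Cord exceeded liver by 2.05 ± 0.26 (adjusted p = 6.50e-07) and muscle was below cord by −1.61 ± 0.24 (adjusted p = 5.36e-06). Muscle and liver differed by 0.44 ± 0.26 (adjusted p = 0.143). ADORA3 was lowest in muscle, below liver by −2.55 ± 0.35 (adjusted p = 2.46e-06) and below cord by −1.86 ± 0.32 (adjusted p = 4.00e-05). Cord and liver differed by −0.69 ± 0.35 (adjusted p = 0.0880).

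Of 37 further genes of adenosine transport, purine metabolism and cyclic AMP signalling, 10 could be named through the study's table. Because that table was selected on birth weight, their birth weight values are a description only: LBW minus ABW was above 0 for 5 of 10 in muscle, 7 of 10 in liver and 5 of 10 in cord. Between labels 5 of 10 passed for cord against liver, 7 for muscle against liver and 6 for muscle against cord, beside 66.9%, 65.3% and 64.9% of all probes, so these counts were near or below the background. SLC29A2, an equilibrative nucleoside transporter that carries adenosine across the membrane, had a mean level of 3.05 in muscle, −1.06 in cord and −3.86 in liver. It was 6.92 higher in muscle than in liver (adjusted p = 7.07e-14). NT5C2, a cytosolic nucleotidase, was higher in muscle (0.74, adjusted p = 0.00167) and in cord (1.07, adjusted p = 4.49e-05) than in liver. ADCY5, an adenylyl cyclase that inhibitory G proteins act on, was lower than in liver by −1.81 in cord and −2.37 in muscle, and PDE2A, a phosphodiesterase of cyclic nucleotides, was 1.30 higher in muscle than in liver (adjusted p = 0.000174).

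The probes whose pattern over the 22 arrays was most like that of ADK were DERA (Pearson r = 0.78), NM_018126 (0.78), PECR (0.77), DPH3 (0.77) and ZNF684 (0.76). After each tissue label's mean was taken off they were SCRN3 (0.84), RNF216 (0.84), GTF2H3 (0.82), TMEM2 (0.80) and ECT2 (0.79). These are descriptions over arrays that share label, slide and birth weight group. RNF216 differed between LBW and ABW by −1.88 in muscle, −0.59 in liver and −2.81 in cord (singled out after the values were seen).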

How the data were processed

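The intensities used were, per the file headers, processed signals of Agilent Feature Extraction, with background subtracted and a spatial trend removed, and the log2 table deposited by the authors, in which each probe has a median of 0 within a label, was an alternative. The array's genome placement was not used here. Of each probe, 2 spots were averaged without outlier spots, and the array's 75th percentile was subtracted on the log2 scale. Probes flagged well above background on 75% or more of a group's arrays, in any of 6 groups, were kept (17117 of 20217, with all 8 genes). Tests were made with limma 3.58.1 (lmFit, eBayes; statmod 1.5.0, R 4.3.3) within each tissue label for birth weight, and over 22 arrays and 6 groups between labels, with Benjamini-Hochberg adjustment over all 17117 probes and a threshold of 0.05. Tables and plots used Python 3.11.15, numpy 2.4.6, pandas 2.3.3, scipy 1.17.1 and matplotlib 3.10.9. Fits were tested on simulated data. The genes and lists were chosen with earlier results of these data known, and all 8 genes are described whatever their values. Alternatives were the scaling (median, quantile, 7 spike-in probes), normexp, filters, the methods' Welch test, blocks, leaving out arrays and, after seeing the data, leaving out slide 6 or the ABW cord arrays of slide 4, a floor on dim signals, and ABW or LBW arrays alone.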

Additional observations from a re-analysis of the deposited data

Results flagged for a closer look

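Of 32 sets of 4 arrays (8 genes in 4 groups), 1 held an array far from the other 3: NT5E on muscle ABW replicate 2, at −2.50 against −3.37 to −3.27, with a gap of 0.895 of the group's range, which is beyond Dixon's critical value for 4 arrays. Chance gives such a gap in about 1 of 20 sets. The groups of 3 liver arrays were not examined in this way.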

How the results depend on the processing

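No birth weight call among the 7 tested genes, and none of their interactions with tissue label, appeared under any alternative (0 of 7 throughout). With normexp, which adds an offset of 50 units before the log, the ADK difference shrank to −0.27 in muscle and −0.78 in cord. The net ADK spot signals in LBW were smaller than that offset, at 7.5 to 22 units in muscle and 9.5 to 38 in cord. The part of the offset in the shrinkage was not tested. Leaving out 1 array gave −2.84 to −2.19 in muscle, −3.77 to −2.81 in cord and −1.02 to 0.37 in liver, where the sign turned without ABW replicate 2. The count of genes passing between labels ran from 5 to 6 (cord and liver), 5 to 7 (muscle and liver) and 6 to 7 (muscle and cord) when 1 array was left out. With spike-in scaling ADA in muscle against cord turned to −0.35; that scaling moved the median of all probes to 0.70 (cord and liver), −0.52 (muscle and liver) and −1.18 (muscle and cord). AMPD1 in cord against liver passed with quantile normalization (−1.55, adjusted p = 0.0187), the slide block (−1.35, adjusted p = 0.0487) and without 1 of 5 arrays. The correlation within slides used by the slide block was negative (−0.021), and the standard error was 0.590 with it and 0.606 without it.

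Same-numbered ABW and LBW arrays of a label had correlations from −0.22 to 0.30, and not every array correlated best with its own number. These arrays come from different neonates by the design, so the check cannot show shared animals. Whether arrays of different labels came from the same animals was not checked. With the replicate block 0 of 7 genes passed for birth weight, where 0, 0 and 65 of 17117 probes passed in muscle, liver and cord. Between labels 5, 6 and 7 of 8 genes passed (cord and liver, muscle and liver, muscle and cord). Of all probes 11418, 11042 and 11022 passed, so nothing is read from these counts, which include ADK and AMPD1.

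Signals near background limit ADK in LBW and AMPD1 outside muscle: levels below the lowest flagged signal of an array have no order.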
